A study of Arabidopsis thaliana with 8 samples.

Results

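A set of 7 Arabidopsis thaliana genes connected with defence, or found beside such genes at the top of the 10-day ratios, was followed EST by EST in plants that overexpress PK12, a tobacco kinase of the LAMMER family. The genes are AT2G38870 (potato inhibitor I family), AT3G13650 (dirigent family), AT1G26410 (berberine bridge enzyme-like), AT3G26470, AT1G76960, AT5G42530 and ECS1 (AT1G31580). All expressed sequence tags (ESTs) that the array annotation pairs with one of these genes alone were taken, which gave 11 of the 11965 ESTs on the arrays used for 10-day plants and 10 of the 8829 on those used for 21-day plants. ECS1 was printed as 5 ESTs on both array types. The other 6 genes had 1 EST each at 10 days, and AT1G26410 had none at 21 days.

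Each array was hybridised with total RNA of non-transformed plants in channel 1 and of plants overexpressing PK12 in channel 2, from plants grown under long days for 10 days (arrays 56, 57, 60 and 61) or 21 days (arrays b100, b90, t100 and t90). The labels name no promoter, transgenic line, tissue, dye or infection treatment, and they count 2 independent experiments among the 4 arrays of an age without saying which arrays share one. Part of the spread behind the p-values below may therefore be technical, and precision is limited by how many arrays there are. The files hold 1 ratio per EST and array and no intensity, so no abundance can be given and the tissue could not be checked by its markers. Which channel was the numerator is not given, so a positive value lies on the side of PK12 plants only if channel 2 was divided by channel 1. Fewer cells of a type and less RNA per cell cannot be told apart in such samples. All values below are log2 ratios after centring each array on its median, and errors are SDs over the 4 arrays of an age.

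Plants answer microbes and wounding with proteins that block foreign enzymes, strengthen the wall and make defensive metabolites. Proteinase inhibitors of the potato I family belong to the pathogenesis-related proteins and act on serine proteinases of attackers. Dirigent proteins steer the coupling of phenolic radicals and are tied to lignans and lignin, while berberine bridge enzyme-like proteins are flavin-dependent oxidases, some of which oxidise sugars released from the wall. RPW8 domains, named after a powdery mildew resistance locus of Arabidopsis, occur in small resistance proteins and in helper immune receptors, and AT3G26470 belongs to that group. ECS1 encodes a small cell wall protein, and a possible linkage to resistance against the bacterium Xanthomonas campestris has been described. No function is given here for AT1G76960 or AT5G42530.

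The genes were picked for their ratios on the 10-day arrays, so those values are a description and carry no test. At 10 days 10 of the 11 ESTs were above 0 on all 4 arrays, as were 21.1% of all ESTs, and 43 of the 44 single values were positive. The exception was 1 EST of ECS1 on array 60. Means ran from 0.88 to 3.56, where the median over all 11956 ESTs measured on every array was -0.01. The lowest mean of a gene was that of ECS1 at 1.60, and the next genes of one sign below it were AT4G17670 at 1.59, AT1G04660 at 1.56 and ILA at 1.52.

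The genes with a named enzyme or domain kept ratios of 1.55 or more on every 10-day array, as did AT1G76960 and AT5G42530 (below). AT2G38870, the proteinase inhibitor, read 3.59, 3.41, 2.88 and 2.42 on arrays 56, 57, 60 and 61, a mean of 3.08 ± 0.53 (SD, n = 4) or an 8.43-fold departure from equal channels. It was 17th from the top of all ESTs by mean, and its lowest array still stood 74th among the values of that array. AT3G13650, the dirigent protein, read 2.49, 2.27, 3.18 and 2.94 (mean 2.72 ± 0.41, 6.59-fold). It was the only EST of the 11 with both values of arrays 60 and 61 above those of arrays 56 and 57.

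AT3G26470, the RPW8-domain gene, varied least of the 11 ESTs, with 2.89, 2.35, 2.23 and 2.27 and a mean of 2.44 ± 0.31. Its arrays 57, 60 and 61 lay within a narrow band, and array 56 was the high one. Array 56 was deposited mostly to 2 decimals, a step of 0.03 on the log2 scale, which is small beside these differences. AT1G26410, the berberine bridge enzyme-like gene, read 2.33, 3.25, 1.55 and 3.01, a mean of 2.53 ± 0.76. Here arrays 57 and 61 were high and arrays 56 and 60 low, an order that none of the other 10 ESTs had. Over all ESTs the same arrays went together, with Pearson's r of 0.638 between arrays 57 and 61 and 0.620 between arrays 56 and 60, against 0.545 for 56 with 57 and 0.570 for 60 with 61 (r across ESTs, which are not independent replicates).

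**Figure D1:**
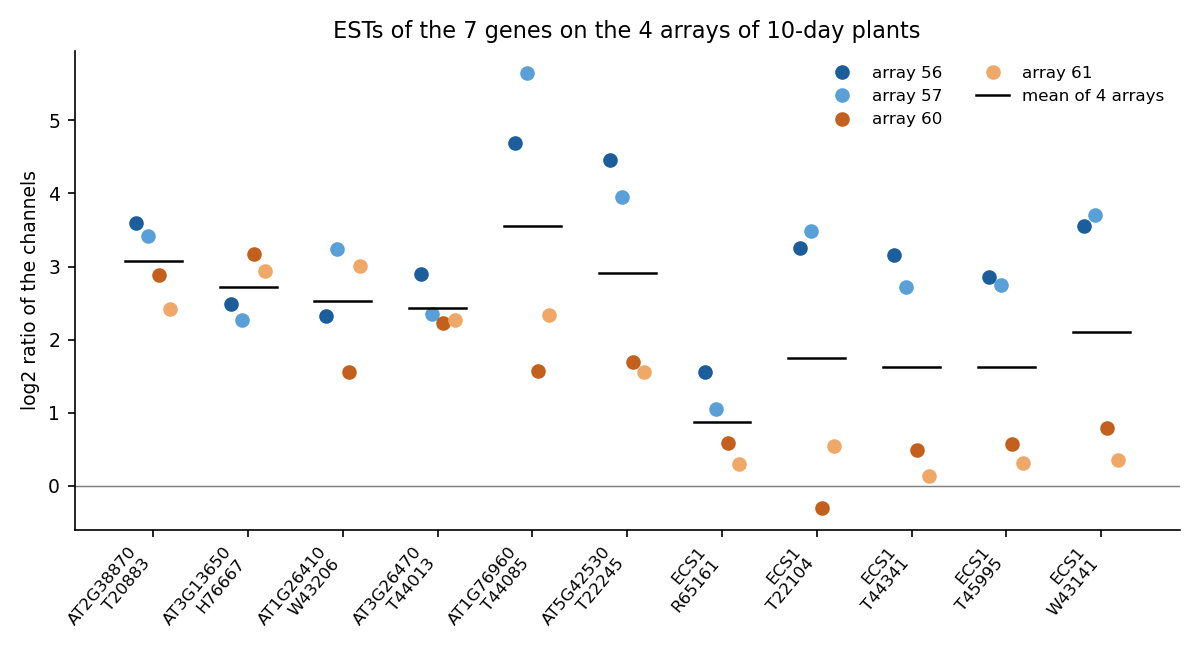
Log2 ratio of each of the 11 ESTs (horizontal axis, gene above EST) on each 10-day array (points, coloured by array), with the mean of the 4 arrays as a bar. Every gene but ECS1 stays at or above 1.55 on every array. AT1G76960, AT5G42530 and 4 of the 5 ESTs of ECS1 split into 2 high and 2 low arrays.

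In AT1G76960, AT5G42530 and ECS1 arrays 56 and 57 stood far above arrays 60 and 61. AT1G76960 read 4.69 and 5.65 against 1.57 and 2.33. It was the highest of all values on array 57 and 4th on array 56, but 246th on array 60. AT5G42530 read 4.45 and 3.94 against 1.69 and 1.56, which put it 6th and 9th on the first pair of arrays and 201st and 271st on the second. Both genes thus remained positive on the low arrays, at values where array 60 read 1.55 for AT1G26410.

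ECS1 fell close to equal channels on the low arrays. The mean of its 5 ESTs was 2.88 and 2.74 on arrays 56 and 57 and 0.43 and 0.33 on arrays 60 and 61. EST W43141 read 3.56, 3.71, 0.80 and 0.36, and EST T45995 2.86, 2.74, 0.57 and 0.31. EST T44341 followed them with 3.16, 2.72, 0.49 and 0.14. EST T22104 spanned the widest range, with 3.26 and 3.49 against -0.30 and 0.55, so that it lay below equal channels on array 60. EST R65161 was flatter, at 1.56, 1.05, 0.59 and 0.30, yet its arrays stood in the same order as those of T45995 and T44341. The 5 ESTs share a target gene, so they are not replicates of the plants.

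The size of this difference can be set beside that of all ESTs. The genes were chosen partly for it, so the ranks and percentages below are a description and carry no test. The mean of arrays 56 and 57 exceeded that of arrays 60 and 61 by 3.22 (9.31-fold) for AT1G76960, by 2.57 (5.96-fold) for AT5G42530 and by 2.43 (5.40-fold) for the ESTs of ECS1 averaged. Only 79 of the 11956 ESTs (0.661%) differed by 2 or more in that direction. T22104 of ECS1 ranked 2nd, AT1G76960 3rd and W43141 6th. T44341, AT5G42530 and T45995 ranked 19th, 21st and 39th, and R65161, with a difference of 0.86, ranked 997th. The corresponding differences were 0.85 for AT2G38870, 0.51 for AT1G26410, 0.37 for AT3G26470 and -0.68 for AT3G13650.

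Differences within the pairs were smaller than these steps for AT1G76960, AT5G42530 and each EST of ECS1. Arrays 56 and 57 differed by 0.11 to 0.51 for the ESTs of ECS1, by 0.51 for AT5G42530 and by 0.97 for AT1G76960, where the median over all ESTs was 0.504. Arrays 60 and 61 differed by 0.26 to 0.85 for the ESTs of ECS1, by 0.13 for AT5G42530 and by 0.77 for AT1G76960, where that median was 0.419. Of the squared spread of an EST over its 4 arrays, the step between the pairs held 99.3% for T45995, 98.9% for W43141, 98.0% for AT5G42530 and 93.1% for AT1G76960, against a median of 31.9% over all ESTs. The step also held 89.7% for AT3G13650, where it ran the other way, and 85.7% for AT2G38870. It held 48.8% for AT3G26470 and 14.9% for AT1G26410. Arrays 56 and 57 were both above arrays 60 and 61 in 9 of the 11 ESTs and in 19.6% of all ESTs. The genes were chosen partly for this order, so nothing is read from the count or from the shares of spread.

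Whether the pairs are the 2 experiments the labels mention is not known, and the part of a batch in the difference was not tested. The only measured seed storage gene of 10 listed, PAP85, moved the opposite way with 0.73 and 1.23 on arrays 56 and 57 and 4.70 and 4.85 on arrays 60 and 61, and it passed limma over all genes (mean 2.88 ± 2.20, adjusted p = 0.0485). Of 2 root markers PYK10 was measured, at -0.23, -0.41, -0.11 and -0.23 averaged over 10 ESTs, and of 3 markers of senescing leaves none. Single ESTs of PYK10 ranged from N95986 with a mean of -0.93 (limma adjusted p = 0.0424) to N65420 with 0.98, whose values of 2.43 and 1.61 against 0.07 and -0.18 parted the same arrays as ECS1. The part of seed or root material in the ratios was not tested. Medians of the 36 spots on either side of the 11 ESTs ran from -0.98 to 0.87 over the 10-day arrays, and subtracting them moved every mean by less than its SD. The lowest of these medians belonged to AT1G26410 on array 60. The highest belonged to R65161 of ECS1 on array 56, and the mean of that EST went from 0.88 to 0.52.

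**Figure D2:**
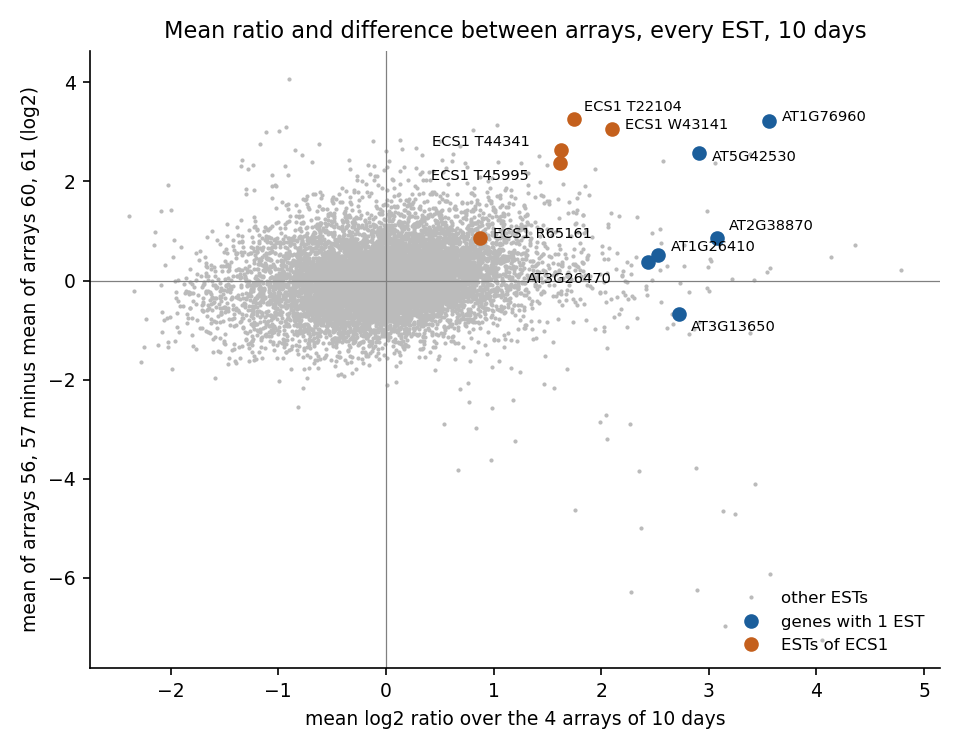
Each point is 1 of 11956 ESTs at 10 days, with the mean log2 ratio over 4 arrays on the horizontal axis and the mean of arrays 56 and 57 minus that of arrays 60 and 61 on the vertical axis. AT1G76960, AT5G42530 and 4 ESTs of ECS1 lie above 2 on the vertical axis, while AT2G38870, AT3G13650, AT1G26410 and AT3G26470 lie within 1 of 0 at means above 2.

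For each gene, the named genes outside the set of 7 whose 4 values lay nearest in Euclidean distance are given. This distance depends on the level of the ratios as well as on the order of the arrays. ESTs without a named gene were not searched, so how common a profile was is not shown. AT3G26470 had close company, with AT3G02360, a 6-phosphogluconate dehydrogenase of the pentose phosphate pathway, at a distance of 0.45 and RAP, a chloroplast RNA-processing protein, at 0.60. AT5G63940 was nearest to AT3G13650 (0.68) and also to AT2G38870 (1.21), and RAP came next for both (0.84 and 1.71). AT1G26410 was nearest to AT5G17760 at 1.01, whose values of 1.33, 3.11, 1.53 and 2.92 were again high on arrays 57 and 61, and to AT4G26950 at 1.16. The averaged ECS1 profile was nearest to AT5G04750 at 0.88 (2.19, 2.20, 0.49 and 0.39) and to AT4G31985 at 0.93. AT1G76960 had the most distant company, with AT4G26950 at 3.70 and the glucosyltransferase gene GT72B1 at 3.79. Outside the set those 2 genes were also nearest to AT5G42530, at 2.54 and 2.03.

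Chromosome neighbours were chosen after the values had been seen and are given without a test. Among the 3 protein-coding genes on either side, in the gene order of TAIR10.1, few were measured. YLS5, next to AT2G38870, read 1.99, 1.07, 1.86 and 1.10, and AT3G13670, near AT3G13650, had a mean of 0.96 ± 0.17. Near AT3G26470, AT3G26450 was positive on every array with 0.61, 1.32, 0.63 and 1.01, while AT3G26460 read 1.26 and 1.11 against -0.29 and -0.25. AT1G76970 near AT1G76960 was at -0.57 ± 0.54 and AT5G42560 near AT5G42530 at 0.36 ± 0.68. AT1G26410 lies between AT1G26400 and AT1G26420, also berberine bridge enzyme-like, which had no named EST. Its EST could share signal with such relatives, which was not tested.

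At 21 days none of the 6 genes measured kept a positive ratio on every array, and these arrays had no part in the choice of the genes. No EST of the 10 passed limma over all 8812 ESTs with Benjamini-Hochberg adjustment (adjusted p from 0.568 to 0.975), where 0% of all ESTs passed. At an unadjusted p under 0.05 the count was 890 among all ESTs. None of the 10 ESTs had one sign on all 4 arrays, and 21 of the 40 single values were positive. The shares over all ESTs are not given for 21 days, so nothing is read from these counts. The 95% intervals of the means were wide, reaching 0.78 for AT2G38870 and 2.10 for AT5G42530, so ratios of that size on the positive side are not set aside by these arrays.

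AT2G38870 read -0.58, 0.96, 0.81 and -0.71 on arrays b100, b90, t100 and t90 (mean 0.12 ± 0.89, limma adjusted p = 0.93). Arrays b90 and t100 lay above equal channels and b100 and t90 below. AT3G13650 was at -0.43, 0.45, -0.73 and -0.29 (mean -0.25 ± 0.50, limma adjusted p = 0.784), positive on b90 alone. AT3G26470 was at 0.11, -0.07, 0.52 and -0.71, a mean of -0.04 ± 0.51 and the nearest to 0 of all 10 ESTs. AT1G76960 read 0.59, -0.81, 0.25 and -1.16 (mean -0.28 ± 0.84, limma adjusted p = 0.792).

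For AT2G38870, AT3G13650, AT3G26470 and AT1G76960 every 10-day array was above every 21-day array, an order found in 7.62% of the 3951 annotated ESTs that each array type holds once. The gap ran from the highest 21-day value of 0.96 to the lowest 10-day value of 2.42 for AT2G38870, and from 0.59 to 1.57 for AT1G76960. Their 10-day means exceeded the 21-day means by 2.95, 2.97, 2.47 and 3.85 in that order of genes. Since the genes were chosen for their values at 10 days, no test of this difference is given. Age and array type cannot be told apart here. For AT5G42530 and the 5 ESTs of ECS1 the ages overlapped.

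**Figure D3:**
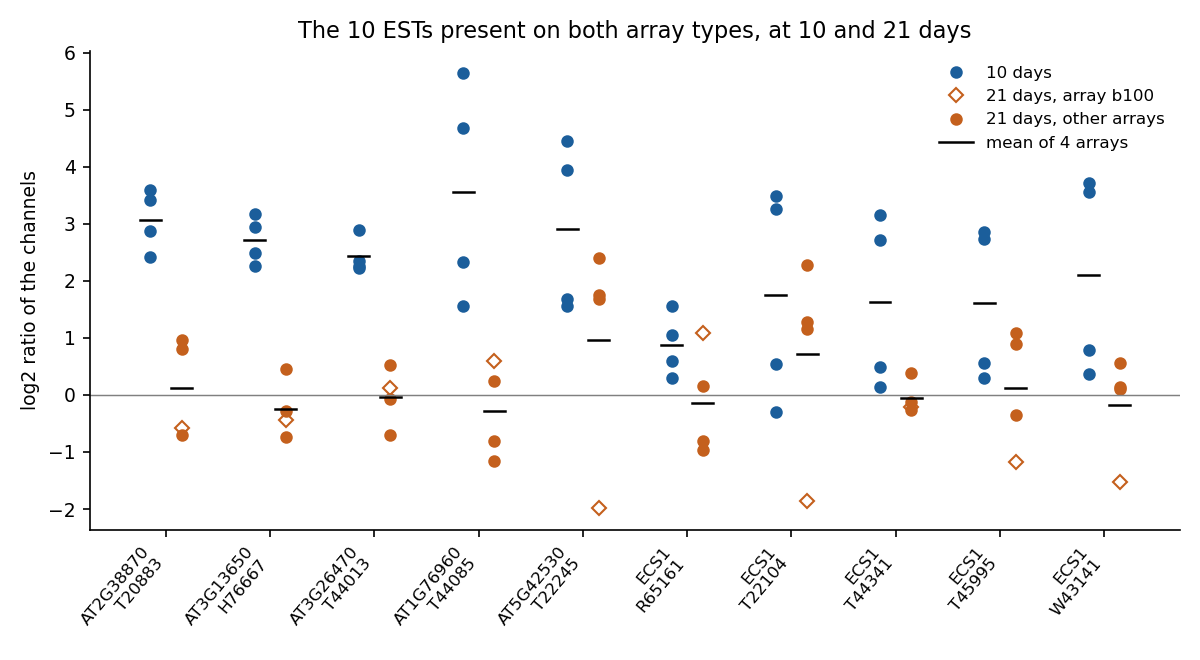
Log2 ratios of the 10 ESTs on both array types, with the 4 arrays of 10 days on the left and of 21 days on the right of each position, array b100 as an open diamond and means as bars. The ages are separate for AT2G38870, AT3G13650, AT3G26470 and AT1G76960, and AT5G42530 has 3 values from 1.69 to 2.40 at 21 days beside -1.98 on array b100.

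AT5G42530 was the exception at 21 days on 3 arrays of the 4. It read 1.75, 2.40 and 1.69 on arrays b90, t100 and t90, and -1.98 on array b100. It was the highest of all values on array t100, and 27th from the lowest on array b100. With all arrays its mean was 0.96 ± 1.99 (limma adjusted p = 0.568), and without array t100 it was 0.48. Without array b100 the mean was 1.95 ± 0.40 (n = 3) and it passed (limma adjusted p = 0.0291), as 1 of 3 ESTs among 8812 (0.034%). The other 2 have no named gene. Leaving out b90, t100 or t90 instead gave 0 ESTs over the whole array type.

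EST T22104 of ECS1 had nearly the same profile as AT5G42530 at 21 days, with -1.86, 1.29, 2.28 and 1.16, a distance of 0.72 over the 4 arrays. It was 3rd highest on array t100. Its mean was 0.72 ± 1.79 (limma adjusted p = 0.652), and without array b100 it was 1.58 ± 0.61 and did not pass (adjusted p = 0.083). Without array t100 it was 0.19. W43141 of ECS1 had its arrays in the same order as T22104, with smaller positive values, at -1.53, 0.15, 0.55 and 0.11. T45995 was also lowest on array b100 but had another order, with -1.17, 1.09, -0.35 and 0.89.

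T44341 stayed within -0.27 and 0.38 on all 21-day arrays. R65161 had its arrays in the reverse order of T45995, with 1.08, -0.97, 0.16 and -0.81. It was the only EST of ECS1 above 0 on array b100. The SD among the 5 ESTs of ECS1 ran from 0.81 to 1.19 on the 21-day arrays. At 10 days it was 0.78 and 1.04 on arrays 56 and 57 and 0.42 and 0.15 on arrays 60 and 61. Averaged, they gave 0.09 ± 0.57 at 21 days (limma adjusted p = 0.937 over 2913 genes).

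Array b100 was below 0 for 7 of the 10 ESTs. Over the whole array type its Pearson's r across ESTs was -0.067 with b90, 0.082 with t100 and -0.019 with t90. Between the other 3 arrays r ran from 0.127 to 0.385.

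**Figure D4:**
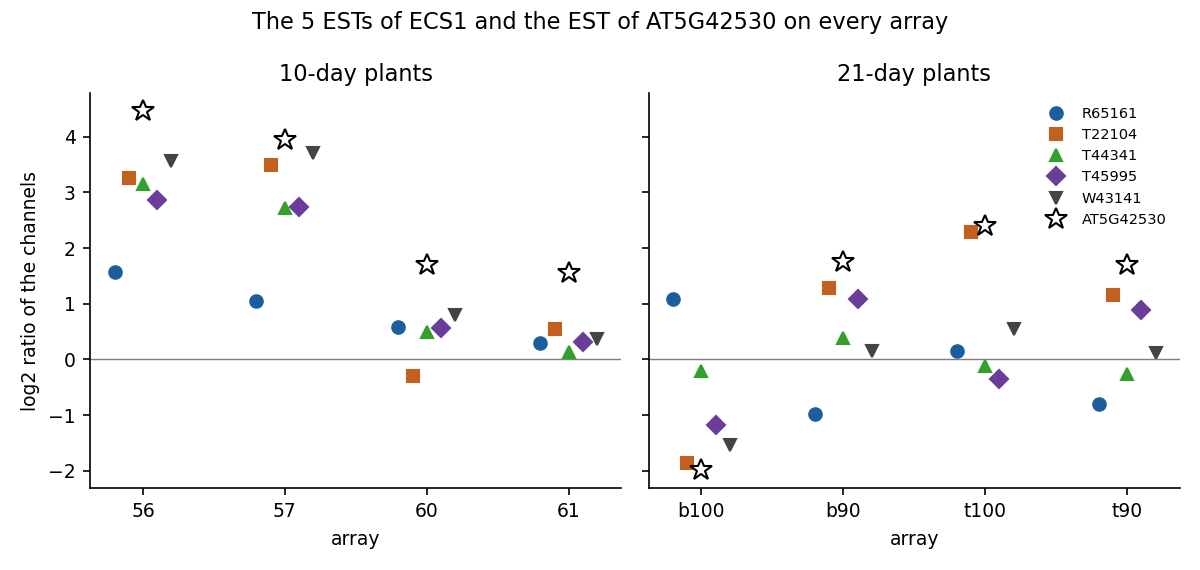
Log2 ratios of the 5 ESTs of ECS1 (filled symbols) and of AT5G42530 (open stars) on the arrays of 10-day plants (left) and 21-day plants (right). All 5 ESTs are higher on arrays 56 and 57 than on 60 and 61 at 10 days, and at 21 days they spread from -1.86 to 1.08 on array b100, where AT5G42530 and T22104 lie together at the low end.

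Relatives of the genes and known defence regulators were examined from locus lists that left the 7 genes out. In these lists and those of seed, root and senescing-leaf markers, a gene counted as measured only where an EST was named for it alone. Berberine bridge enzyme-like genes were the best covered, with 8 of 26 measured at 10 days. Of these, 2 passed limma over 3517 genes on the positive side and none on the negative, where 8.05% and 5% of all genes passed (13.1% on either side), and their median ratio was 0.30 against 0.04 over all genes. AT4G20840, known as an oxidase of oligogalacturonides released from pectin, read 0.57, 0.77, 1.33 and 1.55 (mean 1.05 ± 0.46, limma adjusted p = 0.024). AT4G20860, an oxidase of cellulose fragments, read 0.37, 0.73, 1.58 and 1.71 (mean 1.10 ± 0.65, limma adjusted p = 0.0388).

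Both were higher on arrays 60 and 61, the reverse of ECS1. Neither passed when any 1 array was left out (limma adjusted p from 0.0529 to 0.0778 and from 0.0536 to 0.113). When 56 was paired with 60 and 57 with 61 as a random block (estimated correlation 0.204), both calls were lost as well (limma adjusted p = 0.0507 and 0.0785). AT1G30720 read -0.10, 1.63, 0.01 and 2.56, high on arrays 57 and 61 as AT1G26410 was, and its mean of 1.03 ± 1.29 did not pass (limma adjusted p = 0.172). AT5G44410 had the lowest mean of the family, -0.48 ± 0.21. ESTs of 1 gene differed here too, since those of AT5G44440 had means of 1.18, -0.14 and -0.65. With each EST on its own, N96011 of AT5G44440 (1.18 ± 0.43, limma adjusted p = 0.0138) and T44330 of AT5G44380 (1.06 ± 0.47, adjusted p = 0.0222) passed on the positive side, as did 8.58% of all ESTs, against 8.41% on the negative side.

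Of 25 dirigent genes listed besides AT3G13650, 5 were measured at 10 days. On the negative side 1 passed and on the positive side none, where 5% and 8.05% of all genes passed. The median of the 5 was -0.44 against 0.04 over all genes. AT3G55230 read -0.86, -0.60, -1.27 and -0.79 (mean -0.88 ± 0.28, limma adjusted p = 0.0238), below 0 on every array. It too did not pass when any 1 array was left out (limma adjusted p from 0.0542 to 0.0775). AT4G11190 at -0.57 ± 0.30, AT4G13580 at -0.44 ± 0.39 and AT5G42500 at -0.28 ± 0.40 did not pass, nor did AT2G21100 at 0.41 ± 0.61. No other dirigent gene measured at 10 days thus had a mean above 0.41, beside 2.72 for AT3G13650.

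The other lists were thinly covered. No second gene of the potato inhibitor I family had a named EST. Of 10 other RPW8-domain genes, the helper immune receptors AT5G66900 at 0.26 ± 0.34 and AT5G66910 at 0.34 ± 0.30 were measured, and neither passed (limma adjusted p = 0.375 and 0.237). Of 45 defence markers and regulators, 2 were measured at 10 days. SAG101, a partner of the immune regulator EDS1, read 0.40, 0.31, 1.04 and 0.67 (mean 0.61 ± 0.33), and WRKY53, a transcription factor of senescence and defence, was at -0.32 ± 0.18. Neither passed (limma adjusted p = 0.0693 and 0.215). The usual marker genes of salicylate and jasmonate defence on that list had no named EST. The defence label thus rests on annotation, and it does not cover AT1G76960 and AT5G42530, for which no function is given here.

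**Figure D5:**
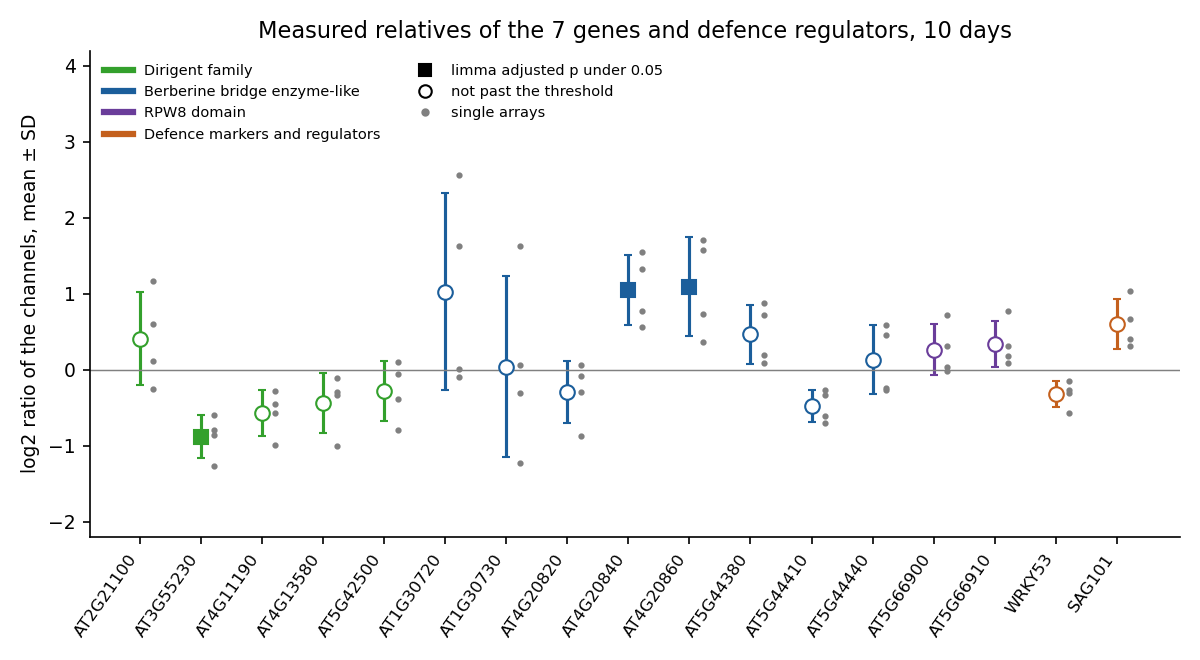
Mean log2 ratio ± SD over the 4 arrays of 10 days for each measured gene of the dirigent, berberine bridge enzyme-like, RPW8-domain and defence lists (large symbols), with single arrays as grey points and filled squares for genes with a limma adjusted p under 0.05. AT4G20840 and AT4G20860 pass on the positive side and AT3G55230 on the negative.

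At 21 days none of the measured relatives passed limma over 2913 genes, where 0% of all genes did and 266 had an unadjusted p under 0.05. They comprised 5 dirigent, 5 berberine bridge enzyme-like and 2 RPW8-domain genes and WRKY53. In the dirigent family means ran from -0.43 ± 0.17 for AT4G11190 to 0.51 ± 0.67 for AT2G21100. Among berberine bridge enzyme-like genes AT1G30730 was lowest at -0.59 ± 0.18 and AT5G44380 highest at 0.22 ± 0.12. AT4G20840, which passed at 10 days, was at 0.10 ± 0.28. AT5G66900 was at -0.24 ± 0.20, AT5G66910 at 0.02 ± 0.51 and WRKY53 at 0.19 ± 0.15.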

How the data were processed

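The authors deposited log10 ratios, judged from the values: 10 raised to the value gave ratios with 3 decimals on 7 of the 8 arrays. The authors had centred each array near a median of 0. The sources used here do not give scanner, dyes, background correction or filters. Values were converted to log2 and centred on each array's median. ESTs were named through the platform annotation and the RefSeq genes (TAIR10.1), which matched 5209 ESTs at 10 days and 3905 at 21 days. No sequences or coordinates were used.

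ESTs measured by each of the 4 arrays entered limma 3.58.1 in R 4.3.3 (statmod 1.5.0, data.table, version 1.17.8) as an intercept, with eBayes and Benjamini-Hochberg adjustment at 0.05 over all ESTs, or over all genes with their ESTs averaged. The script was tested on simulated data. A first simulation, which took the observed SDs as true ones, recovered fewer changed ESTs than the preset target, and another with shrunken variances varied too little; the simulation kept draws variances from limma's fitted prior and meets the same target. Genes, lists and tests were chosen with earlier results of these data known. The text names all 7 genes, list genes that passed or had the highest or lowest mean, the 2 nearest profiles of each gene and the 3 genes next below in mean. Neighbours, local medians, ranks within an array, shares of spread, the order of the ages, single ESTs of relatives and markers, and further list genes were chosen after their values were seen. Alternatives were no centring, scaling, quantile normalization, subtraction of a running median (36 neighbours before and after each EST in identifier order), robust eBayes, ESTs with 2 or more values, pairs of arrays as a random block, the other unit (EST or gene) and leaving out each array.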

Additional observations from a re-analysis of the deposited data

Results flagged for a closer look

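At 21 days the EST of AT5G42530 read -1.98 on array b100, far from the nearest of the other 3 arrays at 1.69. The gap was 0.837 of the whole range. It was the only one of 21 sets of 4 arrays (11 ESTs at 10 days and 10 at 21 days) with a single array so far off, and chance flags about 1 in 20 such sets.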

How the results depend on the processing

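All 88 recomputed 10-day means of the 11 ESTs moved by less than their SD. Leaving out 1 of 4 arrays cannot move a mean by as much as its SD, so nothing is read from those means staying within it. The SD was itself 1.37 or more for AT1G76960, AT5G42530 and the ESTs of ECS1 other than R65161. Leaving out 1 array gave 2.90 to 3.29 for AT2G38870, 2.86 to 4.22 for AT1G76960 and 2.40 to 3.36 for AT5G42530. The count of ESTs of the 7 genes past the threshold at 21 days was 0 except without array b100, where it was 1 (range 0 to 1 over the arrays left out). Over the whole array type 3 ESTs passed without array b100. With b100 and b90 against t100 and t90 as a random block 71 passed, and under the other alternatives 0, so nothing is read from a count of 0 there. The 21-day means changed sign when 1 array was left out for AT2G38870 (-0.16 to 0.40), AT1G76960 (-0.58 to 0.00722), AT3G26470 (-0.22 to 0.19) and the ECS1 ESTs T44341 (-0.20 to 0.0161), W43141 (-0.43 to 0.27), T45995 (-0.21 to 0.55) and R65161 (-0.54 to 0.14). None of these passed. Those of AT5G42530 and T22104 of ECS1 ran from 0.48 to 1.95 and from 0.19 to 1.58, and with quantile normalization they were 2.03 and 1.52 without passing. The 3 relatives past the threshold at 10 days (seed and root lists not counted), among 459 genes in all, became 5 of 781 with the local median removed, 5 with each EST on its own, and 0 of 99 to 195 without any 1 array. With pairs of arrays as a random block they became 1 of 263 (56 and 60 against 57 and 61) or 15 of 2021 (56 and 61 against 57 and 60, whose estimated correlation within pairs was -0.796). The cause was not tested. At 21 days the list count stayed 0 under all 14 alternatives. So did the count over all genes (over all ESTs, with each EST on its own), so nothing is read from it. Ratios without intensities leave the signal over background unknown.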
